A study of Solanum tuberosum with 100 samples.

Results

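The 5 genes described here are potato genes for protein kinases that had been tied to tuber bruising, out of 25163 genes in the count table. They were chosen by 2 criteria, namely an adjusted p below 0.05 in a DESeq2 comparison of high- and low-bruising tubers, and the word kinase in their gene description. Among the 57 genes of that comparison, 5 met the second criterion and 52 did not, and all 5 were measured. Any difference between the high- and low-bruising groups was therefore used to choose these genes, and it is given below as a description without a test.

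RNA was sequenced from tubers of 100 tetraploid genotypes, each a progeny of the breeding line Crop52 and 1 of 11 other parents, sampled at the site of impact 2 h after a weight had been dropped on the tuber. The groups are high bruising (33 samples, mean score of the sampled tubers of at least 2), intermediate (26 samples) and low bruising (41 samples, mean score of at most 1). All 3 groups share the parent Crop52, the impact and the time, and each sample pooled 3 tubers of 1 biological replicate of 1 genotype, so the spread between samples holds the differences between genotypes as well as those between libraries. No unbruised tuber was among the samples. A second replicate of the same genotype was scored but not sequenced, and 99 genotypes have that score.

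Protein kinases transfer phosphate from ATP to other proteins and so switch their activity. In plants, receptor kinases in the plasma membrane sense peptides, microbial molecules or damage to the cell wall, and cytosolic kinases and mitogen-activated protein (MAP) kinase cascades relay such signals towards the nucleus. Cyclin-dependent kinases act in the cell cycle and in transcription. Wounding of plant tissue is a classical trigger of kinase signalling, and a bruise is a wound that leaves the skin closed.

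Read depth was similar in the groups, with total counts of 6832655 to 30655033 in the high-bruising, 7774698 to 41650152 in the intermediate and 8065444 to 37849041 in the low-bruising samples. At the lowest depth, 1 read corresponds to 0.136 CPM, the read count of a gene relative to its library, here always with library sizes scaled by the trimmed mean of M values (TMM) method. All 8 tuber marker genes looked for (5 patatin genes, 2 of starch metabolism and POT32) were measured, and their summed level had a median of 5618 CPM in high-bruising, 4272 CPM in intermediate and 4787 CPM in low-bruising samples. Of the 8, PAT3 and POT32 were low, with medians of 3.39 and 5.09 CPM over all samples, and PAT3 had 0 reads in 1 sample. In pooled tissue, fewer cells of a type and less RNA per cell cannot be told apart. The part of tissue composition in any result below was not tested.

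The first receptor gene is PGSC0003DMG400031752, a leucine-rich repeat (LRR) receptor kinase on chromosome 2 at 33.23 Mb. Proteins of this class carry an extracellular repeat domain that binds a ligand and an intracellular kinase domain. It had 0.710 to 27.3 CPM with a median of 7.95 CPM in high-bruising samples. The intermediate samples had 1.85 to 17.4 CPM with a median of 4.00 CPM, and the low-bruising samples 0.628 to 10.7 CPM with a median of 4.39 CPM. The groups overlapped up to the highest low-bruising sample, and 6 of the 33 high-bruising samples lay above every low-bruising sample. It was the only one of the 5 genes that was higher in high-bruising tubers. Means were 8.58 ± 5.95 CPM (SD, n = 33) in high-bruising, 5.78 ± 3.85 CPM (SD, n = 26) in intermediate and 4.67 ± 2.49 CPM (SD, n = 41) among low-bruising samples, and the difference of high over low was 0.87 on the log2 scale (standard error 0.21).

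The second receptor gene, PGSC0003DMG400004667 on chromosome 12 at 59.38 Mb, is described as Rhg4-like receptor kinase II. Rhg4 is a soybean locus for resistance to the cyst nematode, near which a receptor kinase gene was named. Its level was 7.01 to 50.6 CPM with a median of 28.4 CPM in high-bruising samples. Intermediate samples reached from 16.0 to 84.3 CPM with a median of 35.2 CPM, and low-bruising samples from 8.82 to 90.0 CPM with a median of 40.4 CPM. High-bruising samples were absent from the upper part of this range, where 11 of the 41 low-bruising samples lay above every high-bruising one. Means were 28.9 ± 11.8 CPM (SD, n = 33), 40.9 ± 17.7 CPM (SD, n = 26) and 43.4 ± 19.6 CPM (SD, n = 41) in high-bruising, intermediate and low-bruising samples, and the log2 fold change was −0.58 (standard error 0.15).

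PGSC0003DMG400004363, on chromosome 12 at 52.73 Mb, is described as an auxin-regulated dual specificity cytosolic kinase. Dual specificity kinases phosphorylate serine or threonine as well as tyrosine. It had 1.67 to 31.0 CPM (median 10.1 CPM) in high-bruising, 2.51 to 34.3 CPM (median 12.6 CPM) in intermediate and 4.94 to 34.3 CPM (median 15.1 CPM) in low-bruising samples. Its 6 lowest high-bruising samples lay below every low-bruising sample, while the upper ends of the ranges nearly coincided. The log2 fold change of high over low was −0.65 (standard error 0.17).

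The MAP kinase among the 5 is PGSC0003DMG400002452, on chromosome 12 at 39.80 Mb and described as Big map kinase/bmk. The name BMK is that of a large MAP kinase first described in mammals. It was counted with 718 to 6697 reads per sample. It had 80.8 to 182 CPM (median 115 CPM) in high-bruising, 92.0 to 178 CPM (median 120 CPM) in intermediate and 85.8 to 234 CPM (median 134 CPM) in low-bruising samples. The relative difference was the smallest of the 5 genes, at −0.27 on the log2 scale (standard error 0.07), and so was the spread. Its SD within a group and cross was 0.21 on the log2 scale, lower than in all but 9.55% of the genes with a mean of at least 1 CPM, against 0.84 for the LRR receptor kinase gene.

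PGSC0003DMG401019696, on chromosome 4 at 55.45 Mb, is described as cell division protein kinase 7. In animals, this kinase activates other cyclin-dependent kinases and belongs to the general transcription factor that phosphorylates RNA polymerase II. It had 0 to 1.02 CPM (median 0.461 CPM) in high-bruising, 0.158 to 2.49 CPM (median 0.667 CPM) in intermediate and 0 to 1.94 CPM (median 0.777 CPM) in low-bruising samples. These values rest on few reads, with median counts of 8, 18 and 16, and 1 high-bruising and 1 low-bruising sample had none. High-bruising samples did not reach the levels of the 13 highest low-bruising samples. The log2 fold change of high over low was −0.74 (standard error 0.21).

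**Figure D1:**
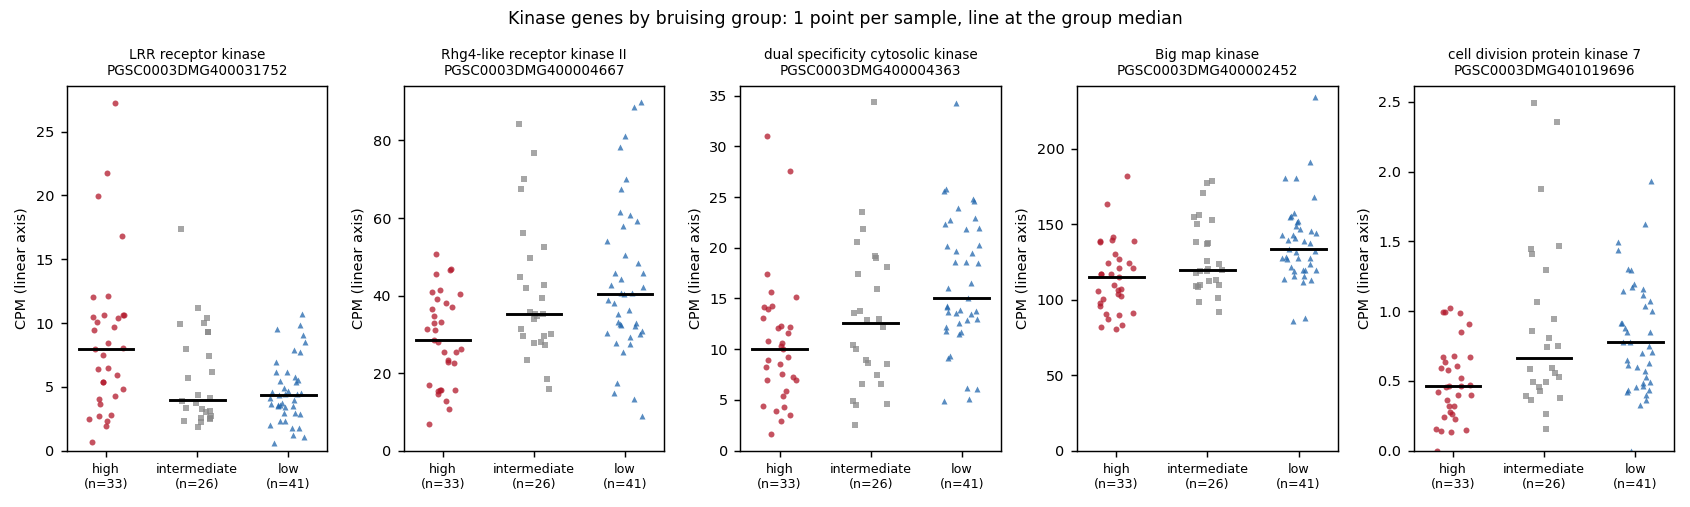
Level of the 5 kinase genes in CPM (vertical axes, linear, a separate scale for each gene) by bruising group. Each point is 1 sample and the line is the group median, which for the LRR receptor kinase gene is 7.95 CPM in high-bruising and 4.39 CPM in low-bruising samples, and for the other 4 genes is lower in high- than in low-bruising samples.

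The comparison of high and low bruising that chose the genes was fitted again here. DESeq2 placed all 5 genes past the threshold, with 0.23% of all genes (58 genes, against 57 in the list used for the choice), and edgeR's quasi-likelihood test placed 1 of them past it, the LRR receptor kinase gene, with 0.183% of all genes. Nothing is read from these counts, since the comparison chose the genes. The members lay close to the threshold, with DESeq2 adjusted p-values of 0.0260 for the LRR receptor kinase gene and 0.0477 for each of the other 4. Just inside the threshold of this fit were PGSC0003DMG400019758 (0.0482) and PGSC0003DMG402010281 (0.0498), and the second is not in the list used for the choice. Just outside were PGSC0003DMG400030620 and PGSC0003DMG400019007 (0.0502 each).

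The intermediate samples were not part of the choice. On a scale where the mean log2 CPM of the low-bruising group is 0% and that of the high-bruising group is 100%, the intermediate group was at 58.7% for the dual specificity cytosolic kinase gene, 36.1% for the Big map kinase gene and 33.6% for the LRR receptor kinase gene. It was at 8.67% for the Rhg4-like receptor kinase gene and at −1.06% for the cell division protein kinase 7 gene. By this measure, the last 2 genes had an intermediate group at about the level of the low-bruising one. By median CPM it lay between the high- and low-bruising groups for both. The Rhg4-like gene had 28.4, 35.2 and 40.4 CPM in high-bruising, intermediate and low-bruising samples, and the cell division protein kinase 7 gene 0.461, 0.667 and 0.777 CPM. For the LRR receptor kinase gene, the intermediate median of 4.00 CPM was below the low-bruising one of 4.39 CPM. Both ends of the percent scale come from the groups that chose the genes, so the positions on it are a description.

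Within the 26 intermediate samples, 15 had a mean score of 1.67 and 11 a mean score of 1.33. The Big map kinase gene had 92.0 to 178 CPM (median 113 CPM) at the higher score and 98.3 to 171 CPM (median 138 CPM) at the lower score. For the LRR receptor kinase gene the values were 2.24 to 17.4 CPM (median 5.72 CPM) at the higher score and 1.85 to 10.4 CPM (median 3.37 CPM) at the lower score. Both medians differed in the direction of the high- and low-bruising groups, and both pairs of ranges overlapped. Neither difference passed edgeR's quasi-likelihood test after adjustment by the Benjamini-Hochberg method, where none of the 5 genes and 0% of all genes did (0 genes, 1025 at an unadjusted p below 0.05, none in DESeq2 or limma-voom). The log2 differences of the higher over the lower score were −0.14 (standard error 0.10) for the Big map kinase gene and 0.39 (standard error 0.34) for the LRR receptor kinase gene. Those of the Rhg4-like, dual specificity and cell division protein kinase 7 genes were −0.15 (standard error 0.23), −0.04 (standard error 0.32) and 0.56 (standard error 0.39).

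The samples came from 11 crosses, and the groups were spread unevenly over them, with 7 high- and 2 low-bruising samples in cross 2165 (Crop52 with Crop18) but 0 high- and 7 low-bruising samples in cross 2170 (Crop52 with Red Rascal). Differences between crosses were therefore tested with the bruising group in the model, which takes the mean difference between groups out of the test. The choosing comparison had no term for cross, so it could favour genes that differ between crosses. The part of this in the result was not tested. Crosses differed for 4 of the 5 kinase genes in edgeR's quasi-likelihood test (Benjamini-Hochberg adjusted), and for 65.9% of all genes, as well as for 44 of the 52 other genes of the choosing comparison. Differences between crosses were thus common in this material, and the 4 of 5 is not far from the share of all genes. The adjusted p-values were 6.93e-09 for the Rhg4-like receptor kinase gene, 2.54e-08 for the Big map kinase gene, 0.00277 for the LRR receptor kinase gene and 0.00603 for the dual specificity cytosolic kinase gene, and 0.369 for the cell division protein kinase 7 gene.

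The share of the variance of log2 CPM that crosses took after the group means were removed was 53.0% for the Rhg4-like and 48.9% for the Big map kinase gene. These shares were above those of 94.2% and 91.7% of all genes, for which the median was 24.7%. The median was 29.1% for genes with a mean of at least 1 CPM, and 34.0% for the 52 other genes of the choosing comparison. The LRR receptor kinase gene with 28.3% and the dual specificity cytosolic kinase gene with 23.2% were near the median of all genes. Both were below the median of the 52 other genes. The cell division protein kinase 7 gene with 14.8% was below each of these medians.

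Cross 2165 stood at an end of the order for 4 of the 5 genes. The Rhg4-like receptor kinase gene had 7.01 to 17.5 CPM in its 9 samples (median 15.3 CPM), and 40.4 to 70.0 CPM in the 5 samples of cross 2183 (median 45.7 CPM), the highest cross by mean log2 CPM. The 2 crosses did not overlap, and the mean log2 CPM of cross 2183 was 1.99 higher. Here and for the genes below, the highest and lowest crosses were picked by the values of the gene itself, which favours ranges that are apart. How many of all genes have such ranges was not counted. Low expression in cross 2165 was shared by its 7 high-bruising samples with a mean of 13.3 CPM and its 2 low-bruising samples with a mean of 13.1 CPM. Of the 10 steps between neighbours in the order of crosses, only the last, between crosses 2168 and 2165, was larger than the pooled SD of the 2 crosses.

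The Big map kinase gene was also lowest in cross 2165, with 82.0 to 113 CPM (median 90.2 CPM), and highest in cross 2177 (Crop52 with Crop37), with 127 to 182 CPM in 6 samples (median 163 CPM). Their ranges were apart. The LRR receptor kinase gene was instead highest in cross 2165, with 5.41 to 27.3 CPM (median 10.4 CPM), and lowest in cross 2183, with 0.628 to 4.46 CPM (median 2.92 CPM). These did not overlap either, and differed by 2.16 in mean log2 CPM. Crosses are ordered by mean log2 CPM, and crosses 2177 and 2183 were nearly level for both genes, so that their order turned round by mean CPM. No step between neighbouring crosses exceeded the pooled SD for either gene. The largest steps in mean log2 CPM were those between crosses 2165 and 2121. They were 0.177 (pooled SD 0.181) for the Big map kinase gene and 0.624 (pooled SD 0.879) for the LRR receptor kinase gene. Whether the crosses form a gradient or separate groups was not tested.

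For the dual specificity cytosolic kinase gene, cross 2183 was highest with 13.5 to 25.8 CPM (median 19.6 CPM) and cross 2121 (Crop52 with V390) lowest with 3.54 to 12.6 CPM in 11 samples (median 7.49 CPM). The cell division protein kinase 7 gene was highest in cross 2170, with 0.434 to 1.5 CPM in 8 samples (median 0.948 CPM), and lowest in cross 2165, with 0 to 1.19 CPM (median 0.402 CPM), and these ranges overlapped. Both samples with no read of this gene were from cross 2165.

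**Figure D2:**
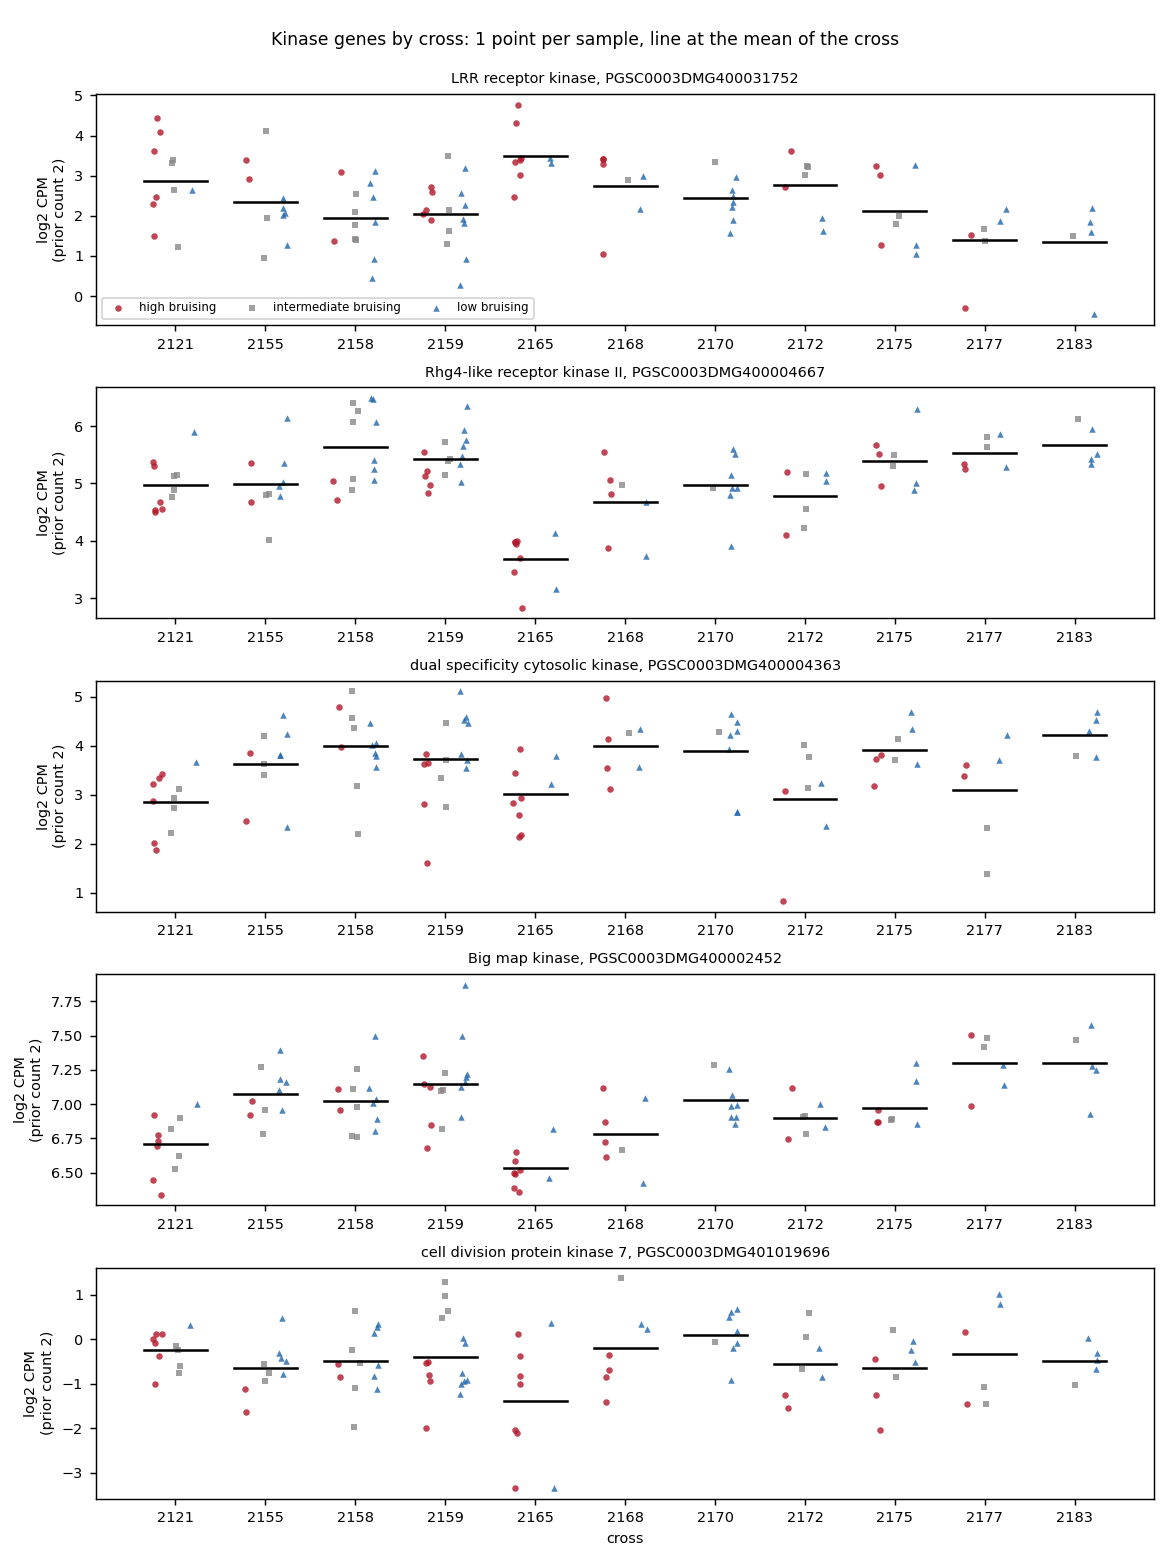
Level of the 5 kinase genes in log2 CPM (prior count 2; a separate vertical scale for each gene) by cross (horizontal axis), with 1 point per sample, coloured and shaped by bruising group, and a line at the mean of each cross. Cross 2165 has the lowest mean for the Rhg4-like, Big map kinase and cell division protein kinase 7 genes and the highest for the LRR receptor kinase gene.

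The cross differences depended on the samples included. Among the 41 low-bruising samples alone, 1 of the 5 genes passed (the Rhg4-like receptor kinase gene, adjusted p = 0.0105 in edgeR's quasi-likelihood test), against 28.7% of all genes, and the adjusted p-values of the others were 0.107 for the Big map kinase, 0.359 for the dual specificity cytosolic kinase, 0.494 for the LRR receptor kinase and 0.418 for the cell division protein kinase 7 gene. Without cross 2121, the dual specificity cytosolic kinase gene had an adjusted p of 0.0573 in the same test of all groups.

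Both high- and low-bruising samples were present in 9 crosses, which allowed their difference to be described within crosses. The LRR receptor kinase gene was higher in high-bruising samples in 8 of the 9 crosses, by a median of 0.42 in mean log2 CPM. The exception was cross 2177, with a mean of 1.74 CPM in 2 high-bruising samples and 4.00 CPM in 2 low-bruising samples. The gene had been chosen for this direction over the same samples, so a majority of crosses in it carries no test.

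The dual specificity cytosolic kinase gene was lower in high-bruising samples in 8 of the 9 crosses (median −0.64), with cross 2158 as the exception. The cell division protein kinase 7 gene was lower in 8 (median −0.89), with cross 2165 as the exception. The Rhg4-like receptor kinase gene was lower in 7 (median −0.27) and the Big map kinase gene in 6 (median −0.14). Over all high- and low-bruising samples, the difference in mean log2 CPM was −0.57 for the Rhg4-like and −0.27 for the Big map kinase gene. It was 0.74 for the LRR receptor kinase and −0.76 for the dual specificity cytosolic kinase gene. For each of these genes the median within crosses was smaller in size. For the cell division protein kinase 7 gene, with −0.67 over all these samples, the median within crosses was larger in size.

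Whether the difference between high and low bruising varied with the cross was tested as an interaction over the 63 samples of these 9 crosses. None of the 5 genes passed, and 0.0159% of all genes did (4 genes, and 1325 at an unadjusted p below 0.05), with adjusted p-values of at least 0.921 for the 5 genes in edgeR's quasi-likelihood test. DESeq2 called 33 genes and limma-voom 35 in the same test, again none of the 5. With 1 to 7 samples per group in a cross, this test is coarse.

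**Figure D3:**
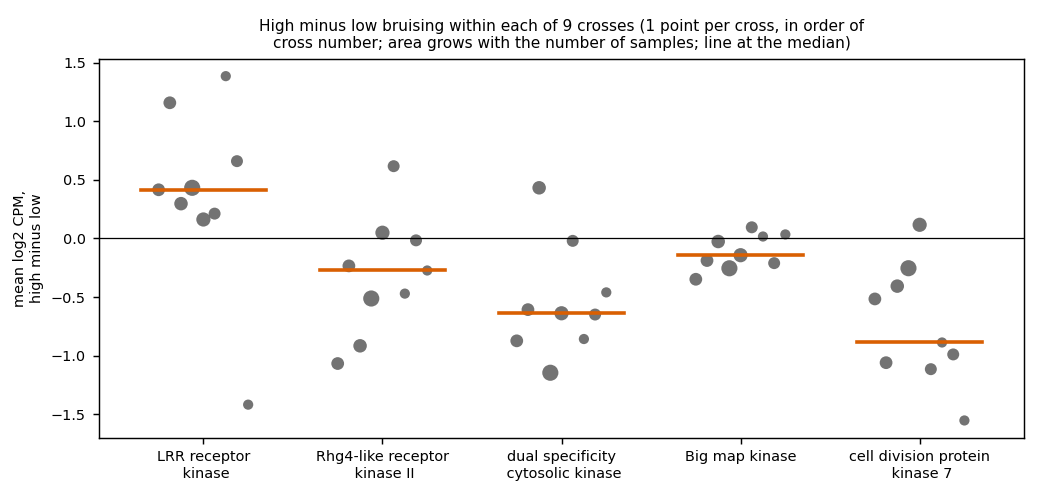
Difference in mean log2 CPM of high- minus low-bruising samples within each of the 9 crosses that hold both groups (vertical axis), for the 5 kinase genes. Each point is 1 cross, placed in order of cross number with an area that grows with its number of samples, and the line is the median over crosses, which lies at 0.42 for the LRR receptor kinase gene and below 0 for the others.

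The bruising score of the replicate that was not sequenced is a measure of the genotype that the choice did not use. It was compared with expression in 99 samples with the group of the sequenced tubers in the model. None of the 5 genes passed edgeR's quasi-likelihood test (Benjamini-Hochberg adjusted), and 0.111% of all genes did (28 genes, and 3305 at an unadjusted p below 0.05), with 26 genes in DESeq2 and 0 in limma-voom. Of the 52 other genes of the choosing comparison, 0 passed. The Big map kinase gene came closest, and ranked 199 of 25163 genes by p.

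The levels of the Big map kinase gene are given by the score of the other replicate. Among high-bruising samples it had 82.0 to 139 CPM (median 103 CPM) in the 18 whose other replicate also scored at least 2, and 106 to 182 CPM (median 138 CPM) in the 7 whose other replicate scored at most 1, with a median of 119 CPM in the 8 between these scores. Among low-bruising samples it had 85.8 to 147 CPM (median 123 CPM) in the 10 whose other replicate scored at least 2, and 88.0 to 234 CPM (median 135 CPM) in the 24 with at most 1, with a median of 151 CPM in the 6 between. The ranges overlapped in both groups, and the medians were lower at the high than at the low score in both, but the low-bruising samples had their highest median in between. In the intermediate samples the medians were 122 CPM in 8 samples at the high score, 119 CPM in 10 samples between and 137 CPM in 8 samples at the low score.

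The fitted slope of the Big map kinase gene was −0.10 on the log2 scale per unit of score (standard error 0.03, adjusted p = 0.126 in edgeR's quasi-likelihood test over 99 samples). It kept its sign in the 99 fits that each left out 1 sample, with adjusted p-values of 0.0584 (without sample 2183_6) to 0.275 (without sample 2177_6). With the cross as a further term, the slope was −0.04 (unadjusted p = 0.120, adjusted p = 0.885 in the same test), so within crosses the slope was smaller. Cross and score cannot be fully told apart in these samples.

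The LRR receptor kinase gene had a slope of 0.21 (standard error 0.10, unadjusted p = 0.0358, adjusted p = 0.335 in edgeR's test). In low-bruising samples it had 1.79 to 10.7 CPM (median 5.80 CPM) in the 10 samples whose other replicate scored at least 2 and 0.628 to 9.82 CPM (median 3.67 CPM) in the 24 with at most 1. With the cross in the model the slope was 0.08 (adjusted p = 0.957 in edgeR's test). The Rhg4-like receptor kinase gene had a slope of −0.13 (standard error 0.07, adjusted p = 0.422), which was −0.01 with the cross in the model.

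Slopes of the dual specificity cytosolic kinase gene (−0.04, standard error 0.08) and the cell division protein kinase 7 gene (0.01, standard error 0.10) were within 1 standard error of 0. For the cell division protein kinase 7 gene, the low-bruising samples had medians of 0.915 CPM at the high and 0.816 CPM at the low score of the other replicate. Its slope changed sign in fits that left out single samples or crosses, and that of the dual specificity cytosolic kinase gene in 1 fit that left out a sample.

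**Figure D4:**
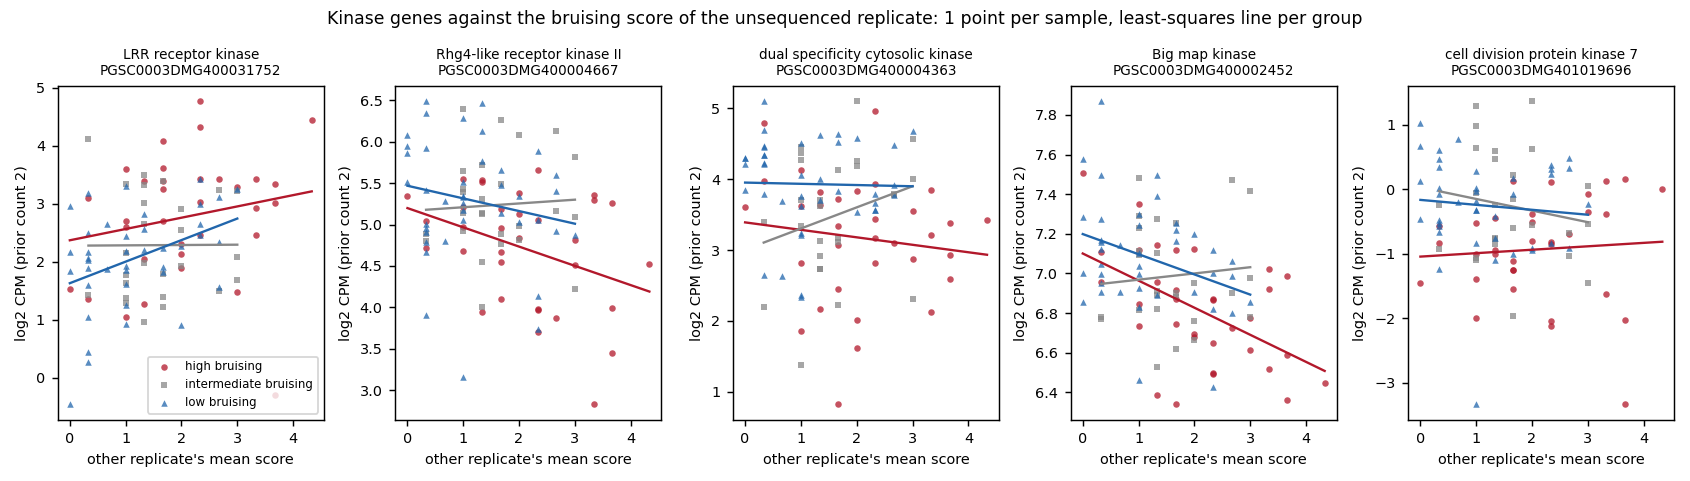
Level of the 5 kinase genes in log2 CPM (prior count 2, vertical axes) against the mean bruising score of the replicate that was not sequenced (horizontal axes), with 1 point per sample for 99 samples and a least-squares line for each bruising group. In the panel of the Big map kinase gene the lines of the high- and low-bruising groups both slope downwards, around a fitted common slope of −0.10 per unit of score.

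The same relation was tested in the 26 intermediate samples alone, which the choosing comparison did not contain. None of the 5 genes passed, against 0.0874% of all genes (22 genes, 1302 at an unadjusted p below 0.05, 10 in DESeq2 and 0 in limma-voom). The slope of the Big map kinase gene was 0.03 (standard error 0.07) and that of the LRR receptor kinase gene −0.12 (standard error 0.22), both opposite in sign to the slopes over all groups. Whether these slopes differ from those of the other samples was not tested.

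The score of the sequenced tubers themselves, fitted within groups, gave slopes of the direction of the choosing comparison for 4 of the 5 genes. The Big map kinase gene had −0.18 per unit of score (standard error 0.08, unadjusted p = 0.0204), the Rhg4-like receptor kinase gene −0.38 (standard error 0.18, unadjusted p = 0.0361) and the dual specificity cytosolic kinase gene −0.35 (standard error 0.21, unadjusted p = 0.0955), each from edgeR's quasi-likelihood test. The LRR receptor kinase gene had 0.26 (standard error 0.27). The cell division protein kinase 7 gene had a slope of the other direction, 0.28 (standard error 0.25). None of the 5 passed after Benjamini-Hochberg adjustment (adjusted p-values of at least 0.225), and 0.163% of all genes did, with 41 genes in edgeR, 300 in DESeq2, 37 in limma-voom and 3941 at an unadjusted p below 0.05. With the cross in the model, the slopes of the Big map kinase and Rhg4-like receptor kinase genes were −0.09 and −0.30, and 0 genes passed.

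The 5 genes were then compared with each other over the 100 samples, after the means of group and cross had been removed from log2 CPM. Of the 10 pairs, 2 passed limma's test in both directions, and both include the Big map kinase gene. Each gene was in turn the predictor of the other, with p-values adjusted over all genes. In the same fits, 6.38% of all other genes passed with the Rhg4-like, 5.25% with the Big map kinase and 0.238% with the LRR receptor kinase gene. The Big map kinase gene was higher where the Rhg4-like receptor kinase gene was higher, and lower where the LRR receptor kinase gene was higher. The correlation coefficients of the other 8 pairs lay between −0.18 and 0.21.

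For the Big map kinase and Rhg4-like receptor kinase genes, Pearson's r was 0.44 and Spearman's rho 0.39 (permutation p = 1e-05, the smallest that 100000 resamples can give, and 5e-05). The limma adjusted p-values were 0.00174 and 0.000920. The correlation was positive in each of the 11 crosses, and was 0.41 in high-bruising, 0.17 in intermediate and 0.56 in low-bruising samples. Without the 2 samples farthest from the median it was 0.44, and it passed in each of the 11 fits that left out 1 cross. Both genes are on chromosome 12, as is the dual specificity cytosolic kinase gene between them. That gene did not pass with either (r = 0.19 with the Big map kinase and 0.21 with the Rhg4-like gene). The part of chromosome position in these correlations was not tested.

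For the Big map kinase and LRR receptor kinase genes, r was −0.42 and rho −0.37 (permutation p = 3e-05 and 0.00014), with limma adjusted p-values of 0.0358 and 0.00238. The correlation was negative in 8 of 11 crosses, and was −0.26 in high-bruising, −0.29 in intermediate and −0.60 in low-bruising samples. Without the 2 samples farthest from the median it was −0.45. The pair did not pass when any of crosses 2121, 2155, 2158, 2168, 2175 or 2183 was left out, with r of −0.40 to −0.38 and larger adjusted p-values of 0.0889 to 0.241, nor without the 4 samples that stood apart in their cross (r = −0.41, adjusted p = 0.0522 in limma's test). The LRR and Rhg4-like receptor kinase genes, with r = −0.14, did not pass.

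Samples at the ends of the ranges are given as examples of the levels of the 3 genes. These levels still hold the differences between groups and crosses, so they add nothing to the correlations of residuals. Sample 2159_13, of the low-bruising group, had the highest Big map kinase level (234 CPM), with 81.1 CPM of the Rhg4-like and 1.10 CPM of the LRR receptor kinase gene. Sample 2183_1, also of the low-bruising group, had the lowest LRR receptor kinase level (0.628 CPM), with 191 CPM of Big map kinase and 61.5 CPM of the Rhg4-like gene. At the other end, sample 2121_1 of the high-bruising group had 21.7 CPM of the LRR receptor kinase gene, 87.3 CPM of Big map kinase and 23.0 CPM of the Rhg4-like gene. Not all high-bruising samples were alike, and sample 2177_2 of that group had 0.710 CPM of the LRR receptor kinase gene. Sample 2165_9, also of the high-bruising group, had the highest level of that gene (27.3 CPM). It had 90.2 CPM of Big map kinase and 12.9 CPM of the Rhg4-like gene. After removal of group and cross means, its residuals for these last 2 genes were −0.008 and 0.078 on the log2 scale.

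**Figure D5:**
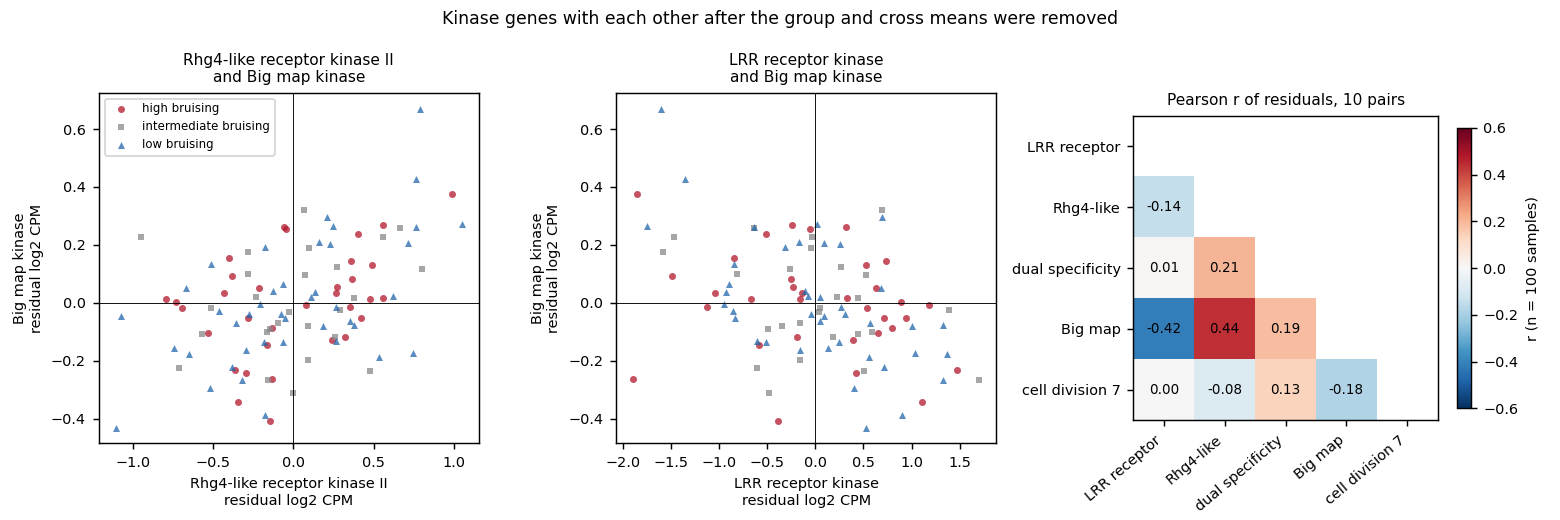
Residual log2 CPM after removal of group and cross means for the 2 pairs of kinase genes that passed (left and middle, 1 point per sample, coloured and shaped by bruising group), and Pearson's r for all 10 pairs over 100 samples (right). The Big map kinase gene has r = 0.44 with the Rhg4-like and −0.42 with the LRR receptor kinase gene.

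The genes differed widely in how many of the other 25162 genes varied with them in the same fit. The Rhg4-like receptor kinase gene varied with 6.38% (1606 genes, 1100 of them positively) and the Big map kinase gene with 5.25% (1320 genes, 940 positively). The dual specificity cytosolic kinase gene varied with 0.298% (75 genes), the LRR receptor kinase gene with 0.238% (60 genes) and the cell division protein kinase 7 gene with 0%. Of the 52 other genes of the choosing comparison, 7 varied with the Rhg4-like and 6 with the Big map kinase gene, which are 13.5% and 11.5% of them, 1 with the LRR receptor kinase gene and 0 with the other 2. Each of these counts depends on the samples, as 850 genes varied with the Rhg4-like gene among the low-bruising samples alone and 2 among the high-bruising ones. Precision also differs between the genes, and the cell division protein kinase 7 gene has a median of 12.5 reads per sample.

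Genes most like each kinase gene were ranked by the size of r over the same 100 residuals, among genes with a mean of at least 1 CPM. None has a description here, so they are given by identifier. The LRR receptor kinase gene was most like PGSC0003DMG400003089 (r = 0.71), PGSC0003DMG400022953 (r = 0.63) and PGSC0003DMG400022427 (r = 0.61). The first of these had r of 0.78 in high-bruising, 0.78 in intermediate and 0.61 in low-bruising samples, so the likeness was present in each group.

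The Rhg4-like receptor kinase gene was most like PGSC0003DMG400024619 (r = 0.68), PGSC0003DMG400000386 (r = 0.66) and PGSC0003DMG400010794 (r = 0.64). For the Big map kinase gene these were PGSC0003DMG400000311 (r = 0.68), PGSC0003DMG400030947 (r = 0.66) and PGSC0003DMG401028807 (r = 0.65). In all 6, the coefficient was lower in the intermediate samples, between 0.33 and 0.43, than in the high- and low-bruising samples. This difference was not tested.

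The dual specificity cytosolic kinase gene was most like PGSC0003DMG400032113 (r = 0.54), PGSC0003DMG400013744 (r = 0.49) and PGSC0003DMG400003126 (r = 0.49). The 12 genes named so far in this comparison passed limma's test with Benjamini-Hochberg adjustment, with adjusted p-values of at most 0.0103. For the cell division protein kinase 7 gene, PGSC0003DMG400005329 (r = 0.44), PGSC0003DMG400024391 (r = 0.44) and PGSC0003DMG402019696 (r = 0.43) came first, and none passed (adjusted p = 0.138 each in limma's test). The identifier of the last differs from that of the kinase gene, PGSC0003DMG401019696, in a single digit. Reads that 2 neighbouring gene models could share were not examined here.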

How the data were processed

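The authors trimmed and filtered the reads, aligned them to the PGSC-DM potato genome with STAR (2.6.1 in the submitters' processing notes, which also name FastQC 0.11.7) and deposited the read counts per gene, without normalization and after removal of genes with low counts. STAR counts only uniquely aligned reads, so genes with near-identical copies can lose reads. In every one of the 25163 genes, 5 or more samples have at least 5 reads. All 100 columns were used. Descriptions and positions of the 5 genes are those of the study's list of differentially expressed genes, bruising scores those of its supplementary table, and the RefSeq gene table matched 0 identifiers.

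Groups and crosses were taken from the sample labels. Counts were tested with edgeR 4.0.16 (TMM, quasi-likelihood F test) in R 4.3.3, with Benjamini-Hochberg adjustment over all genes at 0.05. Models held the group and the tested term (cross, score of the other replicate, or own score), or cross, group and their interaction. The coexpression fits used limma 3.58.1 on log2 CPM with a prior count of 2, and r was tested by permutation with 100000 resamples, two-sided. Alternatives were DESeq2 1.42.0, limma-voom, other size factors and filters, further terms, subsets of the samples, and each cross or sample left out. The main fits for cross, for the score of the other replicate and for coexpression were tested on simulated data. The remaining fits were not. Replicate numbers 1 and 2 (61 and 39 samples) are of different genotypes and do not pair samples.

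The 5 genes and the other lists were chosen with earlier results of these data known. The named genes are the 5 members, the 3 genes most like each, and the 2 on either side of the choosing threshold. Extreme samples and the 4 samples that stand apart were chosen after their values were seen.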

Additional observations from a re-analysis of the deposited data

Results flagged for a closer look

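In crosses of 4 to 10 samples, 40 combinations of a cross and a kinase gene were checked for a single sample far from the others. Chance meets this check in about 1 of 20 if the values are normally distributed. It was run on CPM without a log scale, where that was not tested. In all, 4 were found, each the highest sample of its cross. The Rhg4-like receptor kinase gene PGSC0003DMG400004667 had 70.1 CPM in sample 2155_10, where the other samples of cross 2155 had a median of 27.9 CPM, and 78.3 CPM in sample 2175_4, where the next sample of cross 2175 had 50.6 CPM. The cell division protein kinase 7 gene PGSC0003DMG401019696 had 1.29 CPM in sample 2155_7, where the next sample had 0.705 CPM, and 2.49 CPM in sample 2168_4, where the next sample of cross 2168 had 1.17 CPM. Samples 2155_10, 2175_4 and 2155_7 are of the low-bruising group and sample 2168_4 of the intermediate group.

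Without these 4 samples, 4 of the 5 genes differed between crosses in edgeR's test, as did 16147 of all 25163 genes. For either score 0 of the 5 passed, with 28 of all genes for the score of the other replicate and 25 for the own score. The pair of the Big map kinase and LRR receptor kinase genes no longer passed in limma's test, as given in the report.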

How the results depend on the processing

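For the 5 kinase genes, the count that differed between crosses was 4 in all alternatives except the low-bruising samples alone (1; 7213 of all genes), and with each cross left out it was 3 to 4 (15057 to 16328 genes). For both scores and the interaction it was 0 in all alternatives but 1. That exception dropped the group term, which brought in the choosing comparison, and called 2 members and 912 genes for the score of the other replicate. For that score, the count over all genes was 0 in limma-voom, 6 with filterByExpr, 1 for genes with a count under 5 in fewer than 5 samples and 2 with cross as a term. It was 5 (without cross 2121) to 123 (without cross 2155) with crosses left out and 13 (without sample 2121_1) to 60 (without sample 2183_6) with samples left out. In the intermediate samples it was 10 in DESeq2, 0 in limma-voom and 1 under either filter. For the own score it was 300 in DESeq2, 64 under the stricter filter, 0 with cross as a term, 25 without the 4 samples that stand apart, and 6 (without cross 2121) to 538 (without cross 2165). For the interaction it was 33 in DESeq2 and 35 in limma-voom. Not every alternative could call all 5 kinase genes. The stricter filter, a count under 5 in fewer than 5 samples, removed the cell division protein kinase gene. For the score of the other replicate, DESeq2 gave no adjusted p for that gene or for the LRR receptor kinase gene. In the intermediate samples alone, DESeq2 gave an adjusted p for this score only for the Big map kinase gene.

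Slopes that changed sign were those of the dual specificity cytosolic kinase gene (0.028 in limma-voom, 0.061 with cross as a term, −0.074 to −0.0055 with crosses and −0.063 to 0.0045 with samples left out) and the cell division protein kinase 7 gene (−0.036 and −0.018 in the same settings, −0.13 without the group term, −0.074 to 0.068 with crosses and −0.023 to 0.038 with samples left out), and in the intermediate samples that of the LRR receptor kinase gene (0.026 in limma-voom). The number of pairs of kinase genes that passed was 5 without any terms, 0 in the intermediate or high-bruising samples alone, 1 in the low-bruising samples alone, 1 without the 4 samples that stand apart, and 1 to 2 with crosses left out. The cause of these shifts was not tested. With the replicate number as a block, the counts over all genes were 16458 (cross), 26 (other replicate), 38 (own score), 9 and 0 (both scores in the intermediate samples) and 4 (interaction), 2 pairs passed, and no call of a kinase gene changed. Samples with the same number had a mean correlation of deviations of −0.01, as did samples with different numbers.

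Depth limits the cell division protein kinase 7 gene, whose values rest on 0 to 58 reads.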
